A study of Mus musculus with 6 samples.

Results

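The heat shock response, the unfolded protein response of the endoplasmic reticulum (ER) and the amino acid response were followed through 38 mouse genes: ER chaperones and folding enzymes, stress transcription factors, amino acid response genes, cytosolic heat shock genes and the mitochondrial chaperonin. The clusters were chosen by symbol from a list of genes of these pathways. Of the 38 genes, 34 had a transcript cluster that carried their symbol alone, and they are set among 17468 genes measured in the same fit. A transcript cluster is a set of probes along the exons of a putative transcript, and a gene with several was represented by its brightest over all arrays. No named cluster was used here for Dnajc3, Hsf1, Hsp90ab1 and Hspe1. None of the 34 genes fell below the filter on dim clusters.

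RNA came from retinas of Sall3 knockout mice and of wild-type mice, with 3 samples per genotype. All mice were C57BL/6 of mixed sex, and the retinas were dissected on postnatal day 0, flattened on filters and kept for 7 days on DMEM/F12 medium with 10% fetal bovine serum and antibiotics. Each sample pooled 3 retinas and was run on an Affymetrix mouse exon array of its own. Sall3 is a Spalt family transcription factor with zinc fingers, and the series title names cone photoreceptors and horizontal cells. The labels give neither the knockout allele nor the litter or culture run of a sample, so a p-value reflects only how these samples scatter. The whole cultured retina was profiled, so for any gene fewer cells of a type and less RNA per cell cannot be told apart. Values are log2 signals as summarised by the authors and quantile normalized here. Each difference is the knockout mean minus the wild-type mean of these log2 values, tested with limma.

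Knockout 1 and wild-type 3 stood apart from the other arrays. Along the first principal component of the 17468 genes, which held 45.2% of the variance, knockout 1 lay at -26.4 and knockouts 2 and 3 at 4.24 and 4.71, while wild-types 1, 2 and 3 lay at 0.56, -2.15 and 19.1. Results are therefore also given without these arrays. The Sall3 cluster read 6.25, 6.04 and 6.13 in knockout arrays and 6.21, 6.36 and 6.33 in wild-type arrays, a difference of -0.16 ± 0.10 (SE; limma adjusted p = 0.877). These groups overlapped, and because the position of the probes relative to the deletion is not known, the cluster does not check the genotype labels. Rod photoreceptor markers, 4 of 6 of them measured, summed to 41.8 to 42.0 in knockout arrays and 41.9 to 42.1 in wild-type arrays, and are transcripts of the retina. The 6 cone markers summed to 39.0 to 40.4 in knockout arrays and 43.3 to 45.7 in wild-type arrays. The 5 horizontal cell markers summed to 43.4 to 44.6 in knockout arrays and 45.4 to 46.4 in wild-type arrays. The sums of the 6 microglia markers lay at 45.4 to 48.1 in knockout arrays and 47.3 to 48.2 in wild-type arrays. Those of the 5 measured Muller glia markers lay at 44.6 to 45.9 in knockout arrays and 44.7 to 45.5 in wild-type arrays. The 5 amacrine cell markers summed to 49.22 to 49.59 in knockout arrays and 48.95 to 49.12 in wild-type arrays. These amacrine sums did not overlap and were higher in knockout, although 2 of the 5 markers lay lower there. Sums of the bipolar cell, astrocyte and endothelium markers overlapped between the genotypes. Of tissue that dissection could carry over, all 5 lens markers, 3 of 5 pigment epithelium markers (not Rpe65 and Tyr) and 4 of 5 fibroblast markers (not Lum) lay above the filter. Lens markers summed to 28.4 to 28.6 in knockout arrays and 28.8 to 29.3 in wild-type arrays. The 3 pigment epithelium markers summed to 15.4 to 15.6 in knockout arrays and 15.7 to 15.8 in wild-type arrays. Neither pair of sums overlapped. Taken singly, 2 of the 5 lens markers and 0 of the 3 pigment epithelium markers had every knockout array below every wild-type array. That order held for 11.2% of all genes. The sums were taken in the quantile normalized values only. The 4 fibroblast markers summed to 21.5 to 21.8 in knockout arrays and 21.8 to 21.9 in wild-type arrays. What these cell types and tissues contribute to the stress genes was not tested.

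When unfolded proteins build up in the ER, the sensors IRE1, PERK and ATF6 start a programme that raises chaperones, slows translation and sends misfolded proteins to degradation. PERK, and GCN2 when amino acids run short, phosphorylate eIF2alpha, which favours translation of ATF4 and in turn the genes of amino acid synthesis and uptake. In the cytosol HSF1 drives chaperones of the Hsp70, Hsp90, Hsp40 and small heat shock families. Photoreceptors make large amounts of opsin in the ER, and opsin mutants that misfold are a known cause, in humans, of inherited retinal degeneration.

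The response elements through which these factors are known to act are shown for the genes whose transcripts are described next, because they let the genes be grouped by the factor known to act on them and not by their signal. RefSeq windows of 300 bases (250 before and 50 after each start, assembly GRCm38.p6) were found for 33 of the 38 genes, and both strands were searched. The ER stress element ERSE, bound by ATF6 and XBP1 with NF-Y, was taken as CCAAT, then 9 bases of any kind, then CCACG. It lay in 0.119% of all 32851 mouse promoter windows and in those of Calr, Canx, Dnajc3, Hsp90b1, Hspa5 and Pdia6. ERSE-II, taken as ATTGG, 1 base of any kind and CCACG, lay in 0.0365% of windows and in that of Herpud1. The amino acid response element bound by ATF4, taken as TGATG, 1 base of any kind and AA, lay in 3.97% of windows and in those of Asns, Chac1, Herpud1, Slc7a11, Trib3 and Vldlr. The heat shock element, taken as 3 alternating units of GAA and TTC with 2 bases between units, lay in 0.603% of windows and in those of Hspd1, Hspe1 and Hsph1. The stretches below read in the direction of the element, with the strand given and the element in capitals. In Hspd1 the capitals cover 2 overlapping matches of the heat shock element, so 4 alternating units. The windows of Hsp90b1 and Slc7a11 held 2 matches each, of which 1 is shown. The amino acid response element of Herpud1 is not shown. A match is a description of the letters, not a sign of binding, and a window without one shows only that these letters are not in it.
Hspa5, ERSE, chr2:34772013-34772055, plus strand: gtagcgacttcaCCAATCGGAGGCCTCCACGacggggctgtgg
Hsp90b1, ERSE, chr10:86705521-86705563, plus strand: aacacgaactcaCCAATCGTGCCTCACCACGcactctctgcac
Calr, ERSE, chr8:84847063-84847105, plus strand: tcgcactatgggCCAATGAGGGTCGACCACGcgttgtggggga
Canx, ERSE, chr11:50325788-50325830, minus strand: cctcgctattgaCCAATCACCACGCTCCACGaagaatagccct
Pdia6, ERSE, chr12:17266479-17266521, plus strand: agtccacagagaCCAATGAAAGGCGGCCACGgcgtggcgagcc
Herpud1, ERSE-II, chr8:94386365-94386399, plus strand: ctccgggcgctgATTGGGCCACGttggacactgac
Asns, amino acid response element, chr6:7693213-7693244, minus strand: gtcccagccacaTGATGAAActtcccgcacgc
Chac1, amino acid response element, chr2:119351037-119351068, minus strand: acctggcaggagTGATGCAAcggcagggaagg
Slc7a11, amino acid response element, chr3:50443660-50443691, minus strand: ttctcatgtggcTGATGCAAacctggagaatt
Trib3, amino acid response element, chr2:152344027-152344058, plus strand: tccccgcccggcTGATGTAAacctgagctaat
Vldlr, amino acid response element, chr19:27216808-27216839, minus strand: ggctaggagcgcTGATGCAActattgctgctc
Hspd1, heat shock element, chr1:55088047-55088088, minus strand: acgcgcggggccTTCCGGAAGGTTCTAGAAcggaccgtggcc
Hsph1, heat shock element, chr5:149636276-149636312, minus strand: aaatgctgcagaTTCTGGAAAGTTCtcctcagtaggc

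The stress genes differed little between the genotypes. Of the 34 measured genes, 22 lay lower and 12 higher in knockout explants, with a median difference of -0.013, against -0.0091 over all 17468 genes, of which 9555 lay lower. The split turned with the scaling: in the values as deposited 11 lay lower and 23 higher, with a median of 0.020, and median centring gave the same counts and a median of 0.022. All genes turned with them, to medians of 0.015 as deposited and 0.016 after centring. Without knockout 1 the stress genes gave 28 lower and 6 higher and a median of -0.052, against a median of -0.045 over all genes. Without knockout 1 and wild-type 3 they gave 29 lower and 5 higher and a median of -0.053, against -0.061 over all genes. Other omissions turned the split upward. Without knockout 2 it was 15 lower and 19 higher, with a median of 0.0115, against 0.0087 over all genes. Without knockout 3 it was also 15 and 19, with medians of 0.010 and 0.0078. Without wild-type 2 it was 16 and 18, with medians of 0.0044 and 0.010. The split stayed at 22 and 12 without wild-type 1 and was 23 and 11 without wild-type 3. Differences ran between -0.19 for Ddit3, a fold of 1.14, and 0.17 for Hsp90aa1, a fold of 1.12. A dimmer cluster of Hsp90aa1 went the other way, by -0.20. None was called at a limma adjusted p under 0.05, where 0.0% of all 75632 clusters were called, and none passed an unadjusted p of 0.05, the smallest being 0.118 for Phgdh (limma). At that unadjusted threshold 1.05% of all genes lay lower and 0.544% higher.

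A limma fit with 1 row per gene, in which the spread is borrowed among genes only, put Phgdh alone past an unadjusted p of 0.05 (limma adjusted p = 0.923). In that fit 3.4% of all genes were lower and 1.05% higher at the same threshold. In 6 of the 34 genes, or 17.6%, every knockout array lay below every wild-type array, against 11.2% of all genes. These were Calr, Atf4, Ddit3, Phgdh, Slc3a2 and Hsph1. In none did every knockout array lie above every wild-type array, against 1.7% of all genes. The count of 6 depended on the scaling: it was 1, Phgdh, in the values as deposited, where 3.75% of all genes had that order, and 2, Atf4 and Ddit3, after median centring, with 5.36% of all genes. Without knockout 1 it was 13, against 32.8% of all genes, and without wild-type 3 it was 8, against 17.9%. With both arrays left out it was 21, against 59.9% of all genes.

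All 34 of the 95% intervals included 0, and 33 lay wholly within 0.5 of it. The lowest bound was -0.49 for Ddit3, a fold of 1.40, and the highest was 0.51 for Pdia4, a fold of 1.42. Standard errors ran between 0.085 for Calr and 0.15 for Xbp1. They rest in part on a spread borrowed from every cluster in the fit, named or not. Scatter within genotypes was wider there: the typical residual SD was 0.247, and 0.099 among genes alone. In the fit with 1 row per gene the standard errors were 0.043 for Calr and 0.13 for Xbp1. A miss of the threshold does not show that the genotypes are alike. The intervals give the sizes of difference left possible by these 6 arrays and the borrowed spread together, not by the scatter of these genes alone. Whether a dim cluster stands above background is unknown, and background signal would make a difference in RNA look smaller.

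**Figure D1:**
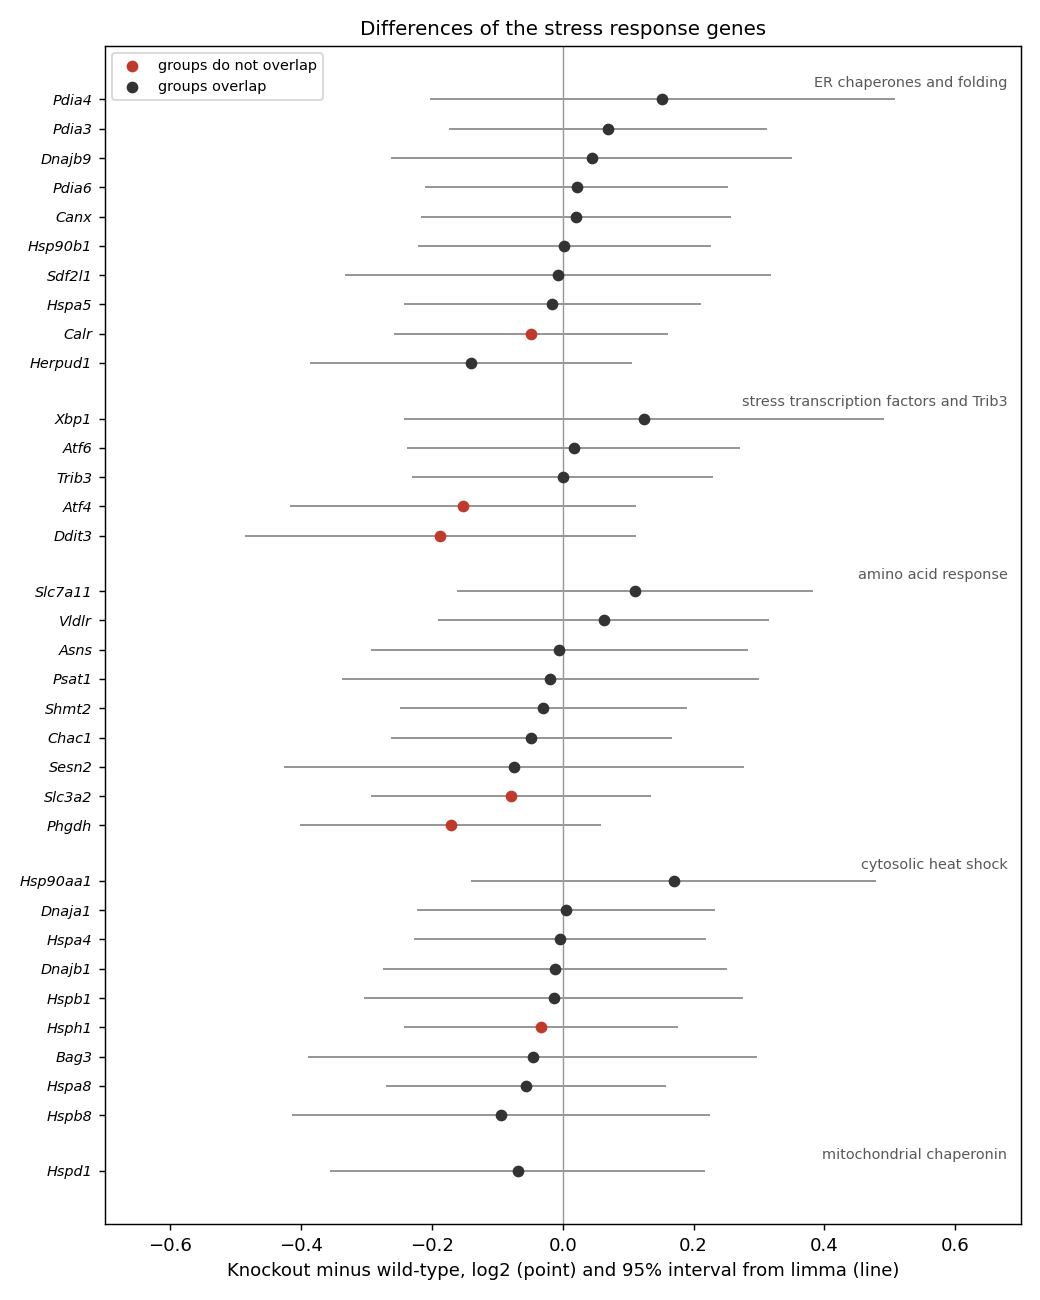
Difference of each of the 34 stress genes, knockout minus wild-type in log2 units (horizontal axis), by role (vertical axis), with points for the limma estimate and lines for its 95% interval (n = 3 arrays per genotype). Red points mark the 6 genes whose genotypes did not overlap; every line crosses 0.

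The ER chaperones and folding enzymes were split by sign, with 4 lower and 6 higher of 10 measured and a median difference of 0.012. As deposited 2 lay lower and 8 higher, with a median of 0.046, against 0.015 over all genes. Without knockout 1 it was 8 lower and 2 higher, with a median of -0.040, against -0.045 over all genes. None passed the test. Hspa5, which encodes BiP, the Hsp70 of the ER and the classical readout of ER stress, read 11.13, 11.04 and 11.06 in knockout arrays and 11.03, 11.09 and 11.16 in wild-type arrays. The genotypes overlapped fully, with a difference of -0.016 ± 0.092 (SE) and an interval of -0.24 to 0.21. Hsp90b1, the Hsp90 of the ER, averaged 9.98 ± 0.069 in knockout arrays and 9.98 ± 0.023 in wild-type arrays (SD, n = 3 each), a difference of 0.0022 ± 0.091 (SE).

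The disulfide isomerases Pdia3, Pdia4 and Pdia6 help secretory proteins form the right disulfide bonds. Pdia4 read 11.25, 11.14 and 11.17 in knockout arrays and 11.18, 11.17 and 10.76 in wild-type arrays. Wild-type 3 alone was low, and the other 5 arrays lay together. The difference of 0.15 ± 0.14 (SE; limma adjusted p = 0.933) became 0.013 without wild-type 3 and -0.018 without knockout 1 and wild-type 3. Pdia3 read 11.25, 11.07 and 11.13 in knockout arrays and 11.03, 11.15 and 11.08 in wild-type arrays, a difference of 0.069 ± 0.099 (SE; limma adjusted p = 0.959). Knockout 1 was highest and the genotypes overlapped, and without that array the difference was 0.020. Pdia6 differed by 0.021 ± 0.094 (SE), and its second cluster, which was dimmer, by 0.24.

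Calr and Canx encode calreticulin and calnexin, the lectin chaperones that hold newly made glycoproteins. Calr read 9.28, 9.25 and 9.28 in knockout arrays and 9.32, 9.34 and 9.30 in wild-type arrays. Every knockout array lay below every wild-type array, by a margin of hundredths, for a difference of -0.048 ± 0.085 (SE; limma adjusted p = 0.965). Canx differed by 0.021 ± 0.096 (SE). Herpud1, an ER membrane protein of the degradation machinery, read 8.45, 8.39 and 8.33 in knockout arrays and 8.44, 8.63 and 8.51 in wild-type arrays. Its difference of -0.14 ± 0.10 (SE; limma adjusted p = 0.896) was the most negative among the ER genes, and knockout 1 lay just above wild-type 1. Without knockout 1 and wild-type 3 it was -0.18. Dnajb9, a J-domain partner of BiP, differed by 0.044 ± 0.12 (SE), with knockout 1 highest, and by -0.061 without that array. Sdf2l1, a component of ER chaperone complexes, differed by -0.0077 ± 0.13 (SE).

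Among the stress transcription factors and Trib3, 3 lay lower and 2 higher in knockout explants, with a median difference of -0.0001, and none passed the test. As deposited 2 lay lower and 3 higher, with a median of 0.030, against 0.015 over all genes. Without both arrays that stood apart all 5 lay lower, with a median of -0.052. Over all genes that median was -0.061, with 14557 of 17468 lower. Ddit3, which encodes CHOP, a factor of prolonged ER stress that favours cell death, read 7.79, 7.89 and 7.92 in knockout arrays and 7.93, 7.98 and 8.25 in wild-type arrays. The genotypes did not overlap, with knockout low, and wild-type 3 was far the highest. The difference was -0.19 ± 0.12 (SE; limma adjusted p = 0.879), -0.089 without wild-type 3 and -0.052 without both arrays that stood apart. Atf4 read 9.42, 9.46 and 9.45 in knockout arrays and 9.50, 9.54 and 9.76 in wild-type arrays. As for Ddit3, the genotypes did not overlap and wild-type 3 was highest. Its difference of -0.15 ± 0.11 (SE; limma adjusted p = 0.894) became -0.073 without wild-type 3 and -0.062 without both arrays.

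Xbp1, whose messenger RNA is spliced by IRE1 into the form that encodes the active factor, read 9.10, 9.03 and 9.03 in knockout arrays and 9.06, 9.09 and 8.63 in wild-type arrays. Wild-type 3 alone was low, as for Pdia4. The difference was 0.12 ± 0.15 (SE; limma adjusted p = 0.951), -0.023 without wild-type 3 and -0.045 without both arrays. Atf6, the ER membrane sensor that is cut to release a transcription factor, read 9.83, 9.65 and 9.68 in knockout arrays and 9.77, 9.73 and 9.61 in wild-type arrays. The genotypes overlapped, with a difference of 0.017 ± 0.10 (SE; limma adjusted p = 0.994) that was -0.037 without knockout 1 and -0.030 without wild-type 3. Trib3, a pseudokinase induced by ATF4 and CHOP that feeds back on them, averaged 6.51 in both genotypes, with SDs of 0.045 in knockout arrays and 0.072 in wild-type arrays (n = 3 each). A gene-level signal measures the amount of transcript and reports neither the splicing of Xbp1, the translation of Atf4 nor the cleavage of ATF6.

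**Figure D2:**
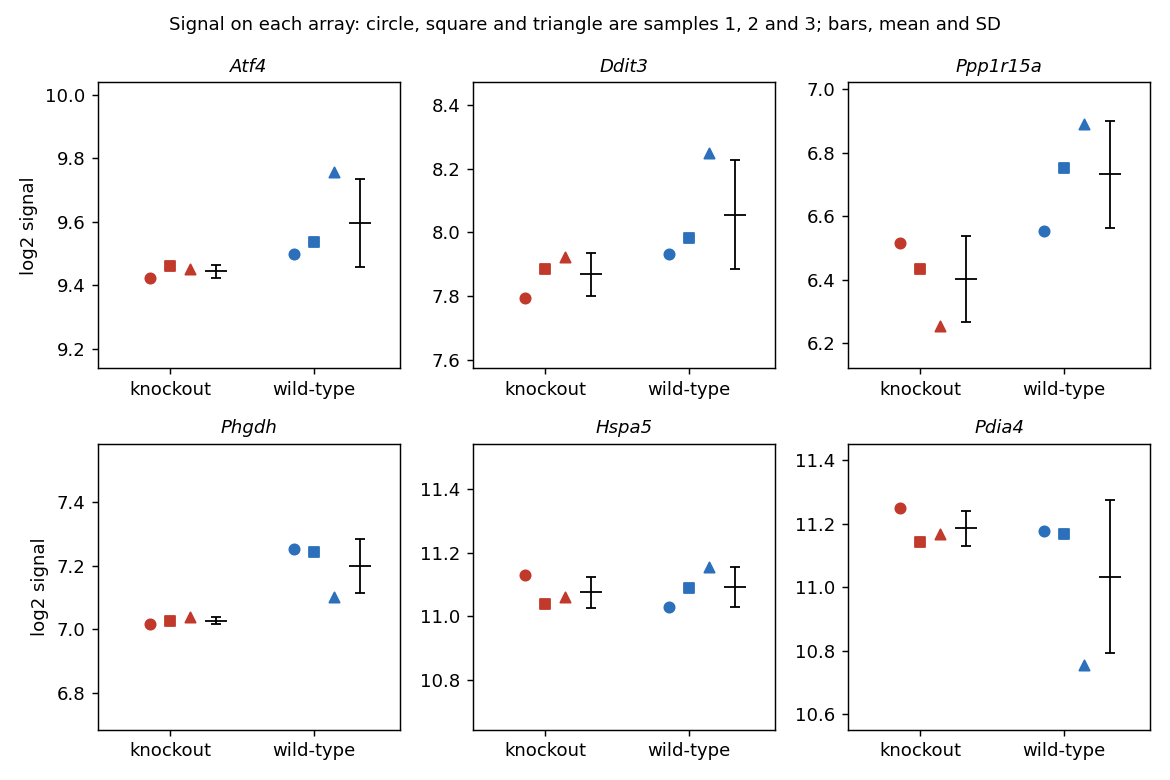
Log2 signal (vertical axes, one per gene and of equal span) of 6 genes on each array, knockout left and wild-type right, with circle, square and triangle for samples 1, 2 and 3 and bars for the mean and SD (n = 3). Wild-type 3 is highest for Atf4, Ddit3, Ppp1r15a and Hspa5 and lowest for Pdia4, while for Phgdh the 3 knockout arrays lie at 7.02 to 7.04, below all wild-type arrays.

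In the amino acid response 7 genes lay lower and 2 higher in knockout explants, and none passed the test. The median difference was -0.030, against -0.0091 over all genes. As deposited the split was 3 lower and 6 higher, with a median of 0.016 (0.017 after median centring). Over all genes these medians were 0.015 and 0.016. Phgdh, the first enzyme of serine synthesis, read 7.02, 7.03 and 7.04 in knockout arrays and 7.25, 7.24 and 7.10 in wild-type arrays. The knockout arrays lay tightly together below all wild-type arrays, with wild-type 3 the closest. The difference was -0.17 ± 0.094 (SE; limma adjusted p = 0.838), with an interval of -0.40 to 0.059, and it was -0.22 without wild-type 3 and -0.21 without both arrays. Of its dimmer clusters, a cluster differed by -0.21 and another by -0.012. The next enzymes of the pathway gave smaller values: Psat1, the phosphoserine aminotransferase, differed by -0.019 ± 0.13 (SE). Shmt2, which turns serine into glycine in mitochondria, differed by -0.030 ± 0.089 (SE).

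Slc7a11 and Slc3a2 form the cystine and glutamate exchanger, of which Slc3a2 is the heavy chain that it shares with other transporters. Slc7a11 read 4.87, 4.65 and 4.65 in knockout arrays and 4.58, 4.70 and 4.56 in wild-type arrays. Knockout 1 was highest, and the difference of 0.11 ± 0.11 (SE; limma adjusted p = 0.935) was 0.035 without it. Slc3a2 read 7.89, 7.86 and 7.81 in knockout arrays and 7.91, 7.96 and 7.92 in wild-type arrays. The genotypes did not overlap, with a difference of -0.079 ± 0.087 (SE; limma adjusted p = 0.942).

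Vldlr, a lipoprotein and reelin receptor known as an ATF4 target, read 10.26, 10.30 and 10.27 in knockout arrays and 10.29, 10.28 and 10.07 in wild-type arrays. Wild-type 3 alone was low, and the difference of 0.062 ± 0.10 (SE; limma adjusted p = 0.964) was -0.0088 without it. Asns, asparagine synthetase and a classical ATF4 target, averaged 8.18 ± 0.12 in knockout arrays and 8.18 ± 0.13 in wild-type arrays (SD, n = 3 each). Without both arrays that stood apart Asns differed by -0.14, against a median of -0.061 over all genes. Chac1, an enzyme that breaks down glutathione, differed by -0.048 ± 0.087 (SE). Sesn2, a leucine sensor that restrains mTORC1, differed by -0.074 ± 0.14 (SE), with knockout 1 at 8.03 above all other arrays and knockout 3 at 7.56 below them. Without knockout 1 its difference was -0.20.

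Of the cytosolic heat shock genes 7 lay lower and 2 higher in knockout explants, with a median difference of -0.014, and none passed the test. As deposited the split was 3 lower and 6 higher, with a median of 0.0096 (0.011 after median centring). Over all genes the median was -0.0091, 0.015 as deposited and 0.016 after median centring. Without knockout 1 the heat shock split was 8 lower and 1 higher, with a median of -0.073, against -0.045 over all genes. Hsp90aa1, the stress-inducible Hsp90, read 10.65, 10.45 and 10.81 in knockout arrays and 10.42, 10.42 and 10.56 in wild-type arrays. Knockouts 1 and 3 lay above all wild-type arrays and knockout 2 between them. The difference of 0.17 ± 0.13 (SE; limma adjusted p = 0.902) was the largest upward value among the stress genes, and 0.21 without both arrays that stood apart. Another named cluster of Hsp90aa1, dimmer than the first, went the other way by -0.20, and the mean of its clusters differed by -0.014.

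The Hsp70 group includes Hspa8, the constitutive Hsp70 of the cytosol, and Hspa4 and Hsph1, which exchange its nucleotide. Hspa8 read 6.71, 6.67 and 6.65 in knockout arrays and 6.71, 6.77 and 6.72 in wild-type arrays. Knockout 1 overlapped with wild-type 1, and the difference was -0.056 ± 0.087 (SE; limma adjusted p = 0.962). Hsph1 read 8.81, 8.77 and 8.81 in knockout arrays and 8.83, 8.85 and 8.81 in wild-type arrays. The genotypes did not overlap, with knockout lower by thousandths at the closest, for a difference of -0.034 ± 0.085 (SE; limma adjusted p = 0.976). Hspa4 differed by -0.0037 ± 0.091 (SE).

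Hspb1 and Hspb8 are small heat shock proteins that hold unfolded proteins, and Hspb8 acts with Bag3 in their removal by autophagy. Hspb8 read 6.47, 6.37 and 6.25 in knockout arrays and 6.41, 6.65 and 6.31 in wild-type arrays. Wild-type 2 was highest, and the difference was -0.094 ± 0.13 (SE; limma adjusted p = 0.958) and -0.22 without both arrays that stood apart. Bag3 differed by -0.046 ± 0.14 (SE), with knockout 1 at 7.04 the highest and knockout 3 at 6.59 the lowest array, as for Sesn2. Hspb1 differed by -0.014 ± 0.12 (SE). The Hsp40 genes Dnaja1 and Dnajb1, which hand clients to Hsp70, differed by 0.0048 ± 0.093 and -0.012 ± 0.11 (SE).

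Hspd1, the Hsp60 chaperonin of mitochondria, read 7.62, 7.55 and 7.79 in knockout arrays and 7.63, 7.68 and 7.85 in wild-type arrays. The third sample was the highest of each genotype, and the difference was -0.069 ± 0.12 (SE; limma adjusted p = 0.965), and -0.0038 without wild-type 3. Whether the clusters read for Hspa8, Hsp90aa1 and Hspd1 report these genes, their processed pseudogenes or both was not tested.

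**Figure D3:**
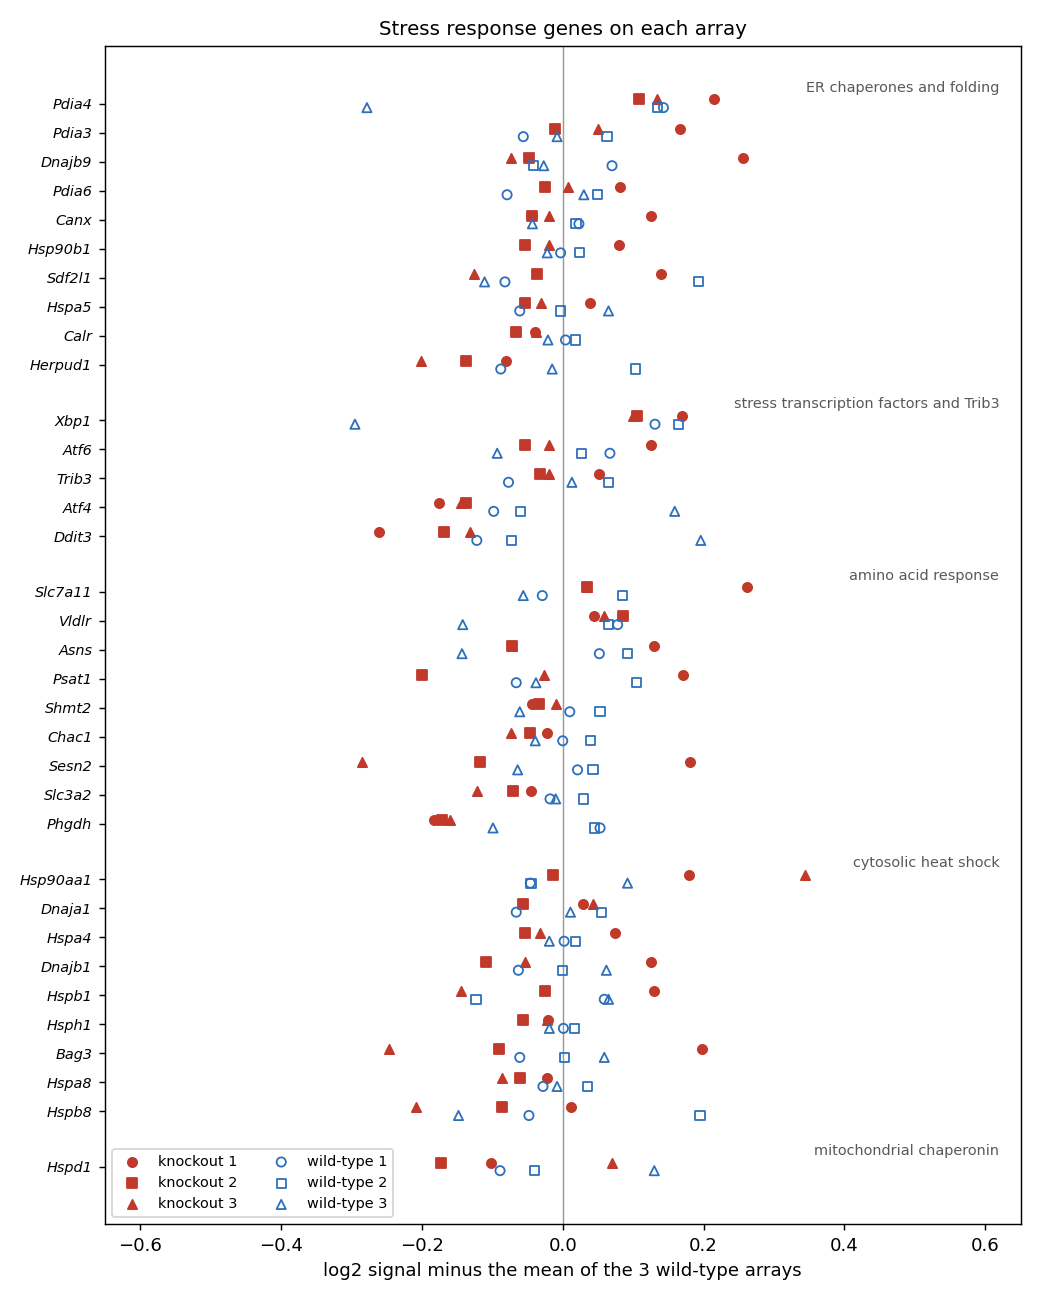
Log2 signal of each of the 34 stress genes on each array minus the mean of its 3 wild-type arrays (horizontal axis), by role (vertical axis), with filled red symbols for knockout and open blue symbols for wild-type arrays. Symbols of the genotypes mix in most genes; knockout 1 is the highest array for 16 genes, and wild-type 3 lies far from the other wild-type arrays for Pdia4, Xbp1, Atf4 and Ddit3.

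The genes with a response element in their promoter window lay close to 0 as well. The 5 measured genes with an ERSE differed by -0.048 to 0.021, with a median of 0.0022, 2 lower and 3 higher. The 6 genes with an amino acid response element differed by -0.14 to 0.11, with a median of -0.0026, 4 lower and 2 higher. Both splits moved with the scaling. As deposited Hspa5 among the ERSE genes turned higher, at 0.0075. Among the genes with an amino acid response element Asns, Chac1 and Trib3 turned higher, at 0.039, 0.0011 and 0.030. The median over all genes was -0.0091, and 0.015 as deposited. Of the genes with a heat shock element, Hsph1 and Hspd1 were measured, and their differences are those given above. Herpud1 held both an ERSE-II and an amino acid response element in its window, and lay lower than any other gene with an element.

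The stress genes as a group stood at a different level on each array. The median of the 34 genes, each taken relative to its wild-type mean, lay at 0.077, -0.054 and -0.032 in knockouts 1, 2 and 3 and at -0.023, 0.037 and -0.020 in wild-types 1, 2 and 3. Knockout 1 and wild-type 2 lay above 0 and the other 4 arrays below it. The same median over all 17468 genes lay at 0.057, -0.047 and -0.041 in knockout arrays and -0.0026, 0.042 and -0.032 in wild-type arrays. Knockout 1 was the highest of the 6 arrays for 16 of the 34 stress genes, or 47.1%, against 45.6% of all genes. Wild-type 3 was the lowest array for 7 of them, or 20.6%, against 32.2% of all genes. The median SD within a genotype was 0.089 for the stress genes and 0.099 for all genes.

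**Figure D4:**
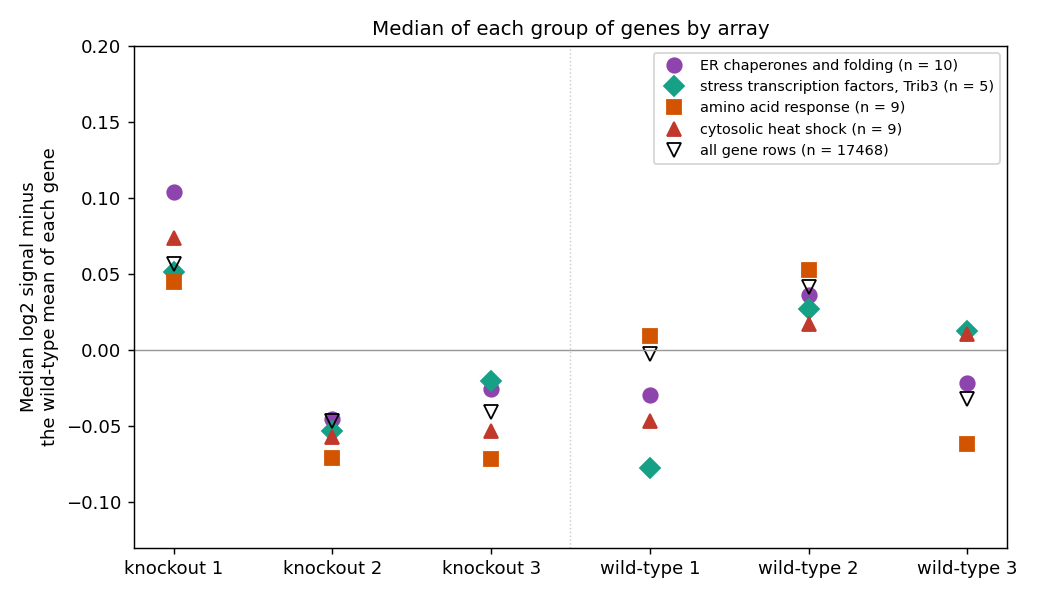
Median log2 signal of each role group and of all 17468 genes on each array, relative to each gene's wild-type mean (vertical axis), with the 3 knockout arrays left and the 3 wild-type arrays right (horizontal axis). Of the 4 role groups drawn, 3 are highest in knockout 1 and the amino acid response in wild-type 2 (the mitochondrial chaperonin, a single gene, is not drawn), and the points for all genes lie between the role groups on every array.

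A wider list of 137 genes of the same pathways was examined, of which 123 were measured. In knockout explants 68 lay lower and 55 higher, with a median difference of -0.0051, and none was called at a limma adjusted p under 0.05. At an unadjusted p of 0.05 there was 1, Ppp1r15a, lower, or 0.813% against 1.05% of all genes. In the limma fit with 1 row per gene there were 4, Ppp1r15a, Syvn1, Cebpb and Dnajb5, all lower, or 3.25% against 3.4% of all genes, so neither count stood above the background. Every knockout array lay below every wild-type array in 9 of the 123, or 7.32%, below the 11.2% of all genes.

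Among 11 measured ER stress sensors and feedback genes, 7 lay lower and 4 higher, with a median difference of -0.0051. Ppp1r15a encodes GADD34, which brings a phosphatase to eIF2alpha and so restores translation after stress. It read 6.52, 6.44 and 6.25 in knockout arrays and 6.55, 6.75 and 6.89 in wild-type arrays. The genotypes did not overlap, with wild-type 3 highest as for Atf4 and Ddit3. The difference of -0.33 ± 0.13 (SE), a fold of 1.26, had an interval of -0.66 to -0.0026 and a limma adjusted p of 0.759. Creb3l1, an ER-anchored transcription factor, differed by -0.094 ± 0.10 (SE). The sensor kinases themselves, Ern1 and Eif2ak3, which encode IRE1 and PERK, differed by -0.041 ± 0.085 and -0.0030 ± 0.088 (SE) and are named here after their values were seen.

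The 31 genes of ER folding and degradation gave 13 lower and 18 higher, with a median difference of 0.0060. Syvn1, the HRD1 ubiquitin ligase of ER degradation, read 8.30, 8.26 and 8.21 in knockout arrays and 8.37, 8.37 and 8.40 in wild-type arrays. The genotypes did not overlap, with a difference of -0.12 ± 0.088 (SE; limma adjusted p = 0.895). Derl2, a channel component of the same pathway, differed by 0.16 ± 0.12 (SE), with knockout 1 highest and wild-type 3 lowest.

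Of 26 measured genes of the amino acid and integrated stress response, 18 lay lower and 8 higher, with a median difference of -0.017. Cebpb, a transcription factor that works beside ATF4, read 6.69, 6.62 and 6.46 in knockout arrays and 6.73, 6.85 and 6.86 in wild-type arrays. The genotypes did not overlap, with a difference of -0.22 ± 0.11 (SE; limma adjusted p = 0.802). Ddit4, an inhibitor of mTORC1 that also responds to hypoxia, differed by 0.17 ± 0.13 (SE), again with knockout 1 highest and wild-type 3 lowest. The 11 measured aminoacyl-tRNA synthetases, which load amino acids onto transfer RNA, gave 7 lower and 4 higher with a median of -0.0094. Their smallest p-values belonged to Vars at -0.084 ± 0.089 and Lars at 0.060 ± 0.091 (SE).

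The 29 other cytosolic heat shock genes gave 17 lower and 12 higher, with a median difference of -0.0096. Dnajb5, an Hsp40, differed by -0.12 ± 0.087 (SE), with all knockout arrays below all wild-type arrays, and Ptges3, the Hsp90 cochaperone p23, by 0.19 ± 0.14 (SE). Of 7 measured subunits of the TRiC chaperonin, which folds actin and tubulin, 2 lay lower and 5 higher, with a median of 0.014. Cct2 differed by 0.11 ± 0.12 and Cct6a by 0.086 ± 0.12 (SE), both lowest in wild-type 3. The 8 mitochondrial chaperones and proteases split evenly, with 4 lower and 4 higher and a median of 0.029. Their smallest p-values belonged to Hscb at -0.17 ± 0.13 and Dnaja3 at 0.19 ± 0.20 (SE).

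Array values are also given for 2 other programmes. The 11 immediate early genes, which follow growth factor signals and neuronal activity, all lay lower in knockout explants, with a median difference of -0.85. Their median relative to wild-type lay at -0.627, -1.003 and -0.911 in knockout arrays and -0.301, -0.108 and 0.469 in wild-type arrays. Wild-type 3 was highest here as for Atf4, Ddit3, Ppp1r15a and Cebpb. Of the 34 stress genes, however, wild-type 3 was highest for only 4, or 11.8%, against 14.1% of all genes. Fos read 6.73, 6.38 and 6.25 in knockout arrays and 8.62, 8.81 and 9.84 in wild-type arrays (difference -2.64 ± 0.35, SE; limma adjusted p = 0.539). Egr1 differed by -2.07 ± 0.23 (SE) with the same adjusted p. The 12 measured hypoxia and glycolysis genes gave 3 lower and 9 higher, with a median of 0.12. Their array medians were 0.36, -0.017 and -0.024 in knockout arrays and 0.042, 0.037 and -0.11 in wild-type arrays, with knockout 1 highest. Whether either programme bears on the stress genes was not tested.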

How the data were processed

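RNA was extracted with an RNeasy kit, amplified in a single round and labelled with biotin, per the labels' protocols. The deposited table holds 1 value per transcript cluster for 100843 clusters on 6 arrays, between 1.48 and 13.86, read as log2 signals from that range. The deposited values are credited, per the submitters' processing notes, to Affymetrix Expression Console and PLIER (a summary method for probe sets), with mm8 named as a mouse genome build and no roles or versions given. How arrays were normalized and corrected for background is not given in the sources used here.

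Deposited column medians differed by 0.103, above a tolerance of 0.1, so the log2 values were quantile normalized. Clusters were kept where their mean reached the 25th percentile (3.70), which left 75632. Of all clusters 22608 carried 1 gene symbol in the platform annotation, and 22101 of these were matched by gene ID to RefSeq symbols. RefSeq coordinates (GRCm38.p6) belong to the promoter windows alone. The genotypes were compared with limma 3.58.1 in R 4.3.3 (lmFit and eBayes, two-sided). Adjustment was by Benjamini-Hochberg across the 75632 clusters, on 4 residual degrees of freedom. The number of arrays and the spread borrowed across all clusters limit the precision. The members and all lists were chosen with earlier results of these data known. Named were all measured members, with array values for the 4 of each role with the smallest p and, added after its values were seen, for Hspa5, 2 genes of each further list by lowest p, and Sall3. Alternatives covered normalization, filter, variance prior, array weights, rows per gene, pairing and each array left out. The counts of genes without overlap, the counts of signs by setting, and the omission of knockout 1 and wild-type 3 together, were added after the data were seen. Python 3.11.15 with matplotlib 3.10.9 made the figures.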

Additional observations from a re-analysis of the deposited data

How the results depend on the processing

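No cluster and no stress gene was called at an adjusted p under 0.05 in any of the alternatives run, and the smallest adjusted p of a cluster ranged between 0.0818 (without wild-type 3) and 0.797 (without knockout 3). The stress genes past an unadjusted p of 0.05 numbered 1 with 1 row per gene, also with an intensity trend, and 0 otherwise. Deviations of same-numbered arrays correlated at 0.125, -0.147 and 0.212 over 17468 genes. Knockout 1 correlated best with wild-type 2, at 0.227, and knockout 3 with wild-type 3, at 0.212. With 3 arrays per genotype, and knockout 1 and wild-type 3 standing apart, these values cannot decide whether same-numbered samples belong together. With the number as a replicate block 0 clusters were called, and 141 genes were lower and 72 higher at an unadjusted p of 0.05, against 184 and 95 without it. The precision is limited by 3 arrays per genotype, by the spread borrowed across all clusters and by an unknown background. The 50th percentile filter removed Slc7a11, which has no value there.

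The cytosolic heat shock median ranged between -0.073 and 0.0088 as each array was left out, against -0.045 to 0.010 over all genes. Without knockout 1 and wild-type 3 the amino acid median was -0.10, against -0.061 over all genes. Stress genes with all knockout arrays lower numbered 1 as deposited (3.75% of all genes) and 2 after median centring (5.36% of all genes). They numbered 6 to 13 as each array was left out (13.1% to 32.8% of all genes) and 21 without both (59.9% of all genes). Those with all knockout arrays higher numbered 0 to 1 as each array was left out (2.52% to 5.66% of all genes) and 1 without both (3.95% of all genes). Of the 34 genes, 9 kept their sign in every alternative: Calr, Pdia3, Herpud1, Atf4, Ddit3, Phgdh, Slc7a11, Slc3a2 and Hspa8. The other 25 changed sign in at least 1, the largest of their differences being 0.17. In the values as deposited and after median centring, these became Hspa5 0.0075 and 0.0091, Sdf2l1 0.036 and 0.037, Trib3 0.030 and 0.031, Asns 0.039 and 0.040, Chac1 0.0011 and 0.0027, Psat1 0.017 and 0.019, Shmt2 0.016 and 0.017, Hspa4 0.023 and 0.025, Hsph1 0.0096 and 0.011, Hspb1 0.0012 and 0.0028, and Dnajb1 0.027 and 0.029. With array weights Hsp90b1 was -0.032, Canx -0.024, Pdia6 -0.0043, Dnajb9 -0.027, Atf6 -0.035 and Dnaja1 -0.012. The median over all genes moved as well, to -0.043 with array weights, where 12868 of 17468 lay lower. It was 0.015 as deposited and 0.016 after median centring. With the mean of a gene's clusters Hsp90aa1 was -0.014. Without knockout 1 and wild-type 3, Hsp90b1 was -0.047, Canx -0.053, Pdia4 -0.018, Dnajb9 -0.075, Atf6 -0.084, Xbp1 -0.045, Vldlr -0.0001, Dnaja1 -0.0018 and Hspd1 0.013.

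As each array was left out in turn, the lowest and highest differences were -0.077 and 0.041 for Asns, -0.037 and 0.052 for Atf6, -0.17 and 0.054 for Bag3, -0.031 and 0.053 for Canx, -0.028 and 0.036 for Dnaja1, and -0.081 and 0.037 for Dnajb1. They were -0.061 and 0.10 for Dnajb9, -0.037 and 0.030 for Hsp90b1, -0.042 and 0.021 for Hspa4, -0.047 and 0.017 for Hspa5, -0.085 and 0.051 for Hspb1, and -0.17 and 0.0036 for Hspb8. For Pdia6 they were -0.018 and 0.046, for Psat1 -0.11 and 0.072, for Sdf2l1 -0.081 and 0.089, for Sesn2 -0.20 and 0.032, for Trib3 -0.039 and 0.032, for Vldlr -0.0088 and 0.10, and for Xbp1 -0.023 and 0.21. The cause of these sign changes was not tested.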

Other observations

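Of 6 measured oxidative stress genes, 5 lay lower and 1 higher in knockout explants, with a median difference of -0.050, and none passed the test. Hmox1, heme oxygenase 1, read 7.14, 6.68 and 6.43 in knockout arrays and 6.86, 7.00 and 6.80 in wild-type arrays. Knockout 1 was the highest and knockout 3 the lowest array, as for Sesn2 and Bag3, and the difference was -0.14 ± 0.20 (SE; limma adjusted p = 0.959). Srxn1, which repairs oxidised peroxiredoxins, differed by -0.082 ± 0.090 (SE), with all knockout arrays below all wild-type arrays. Among glycolysis genes, Pgk1, phosphoglycerate kinase, read 6.21, 6.14 and 6.17 in knockout arrays and 5.70, 5.91 and 5.50 in wild-type arrays. Every knockout array lay above every wild-type array, with a difference of 0.47 ± 0.13 (SE; limma adjusted p = 0.649). Ldha, lactate dehydrogenase A, differed by 0.37 ± 0.19 (SE; limma adjusted p = 0.826), and its genotypes overlapped.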
